A study of Oryza sativa with 4 samples.

Results

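OsWRKY53 (Os05g0343400) is a rice gene for a WRKY transcription factor, and in these data it carried signal of the floral regulator OsMADS2 at both ends. It was taken from the authors' table of genes near shared OsMADS2 regions, where 1 of 2589 genes holds that symbol, and every peak in the gene or within 4 kb of it was then collected. That gave 9 of the 92984 peaks in the deposited lists. The study profiled OsMADS2 by chromatin immunoprecipitation and sequencing (ChIP-seq) in wild-type rice of the line TP309, in whole panicles of 0.3 to 2 cm, so cell types are not separated. There were 2 immunoprecipitation (IP) libraries made with purified anti-OsMADS2 antibody and 2 mock libraries made with rabbit IgG, called IP5, IP6, mock 5 and mock 6. Chromatin was fixed with 1% formaldehyde and cut by micrococcal nuclease. IP5 had 9142837 uniquely mapped reads and IP6 had 15934402, and mock 5 and mock 6 had 13248694 and 16742118. The authors called peaks in 3 lists, IP5 over mock 5 (24169 peaks), IP5 over mock 6 (58213) and IP6 over mock 6 (10602).

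WRKY proteins are plant transcription factors named for the amino acids at the start of their DNA-binding domain, and they bind the W-box. OsWRKY53 is known as a positive regulator of brassinosteroid signalling that affects leaf angle and grain size, and it acts below a MAP kinase cascade that ends in OsMAPK6. It is also known as a gene induced early in defence against fungi and insects. OsMADS2 belongs to the PISTILLATA branch of the MADS-domain proteins, which act in stamens and in lodicules, the grass counterpart of petals.

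The gene lies on the plus strand of chromosome 5, from 16150266 to 16152633 (2368 bp). No source used here names the genome build, and positions are printed as in the authors' files. The authors list 1 merged region for it, 16149883 to 16151850 (1968 bp), which begins 383 bp upstream of the gene start and reaches 1584 bp past it. That region was paired with no gene other than OsWRKY53. The table records pairs up to 3999 bp apart, and it lists no second gene within that distance of the region.

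Peaks at the start came first in the gene's direction. IP5 over mock 5 had 1 broad peak there, 16150260 to 16151812 (1553 bp), with a fold of 3.80 over mock and q = 5.03e-13. IP5 over mock 6 had 1 peak, 16149883 to 16151817 (1935 bp), with a fold of 5.06 and q = 5.92e-24. These were the fifth and the twelfth widest peaks of their lists, whose median widths were 265 and 292 bp. In IP6 over mock 6 the same stretch was split into 3 peaks. The strongest, 16149905 to 16150467, crossed the gene start with a fold of 8.07 and q = 7.57e-49, and ranked 24 of 10602 by fold. The other two lay inside the gene, from 386 to 658 bp past its start (fold 3.01) and from 1143 to 1584 bp past it (fold 2.93). The start was thus called as 1 peak in each IP5 list and as 3 peaks in IP6 over mock 6, the strongest at the gene start. Peak bounds do not give the shape of the signal within a broad peak, so a difference in shape is not shown.

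At the gene end each list had 1 peak. In IP5 over mock 5 it ran from 16152156 to 16152629 (474 bp) with a fold of 2.84 and q = 1.23e-16, and it stopped 4 bp before the annotated gene end. In IP5 over mock 6 it ran from 16152133 to 16152681 (549 bp), 48 bp past the gene end, with a fold of 12.7 and q = 2.12e-71. That was rank 1 of 58213 by fold and by q in that list. In IP6 over mock 6 it ran from 16152156 to 16153031 (876 bp), 398 bp past the gene end, with a fold of 9.34 and q = 7.81e-49, rank 13 of 10602 by fold. The 3 peaks shared 474 bases, all of them inside the gene. Strictly, then, the bases common to the lists were the last part of the gene and not sequence beyond it.

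**Figure D1:**
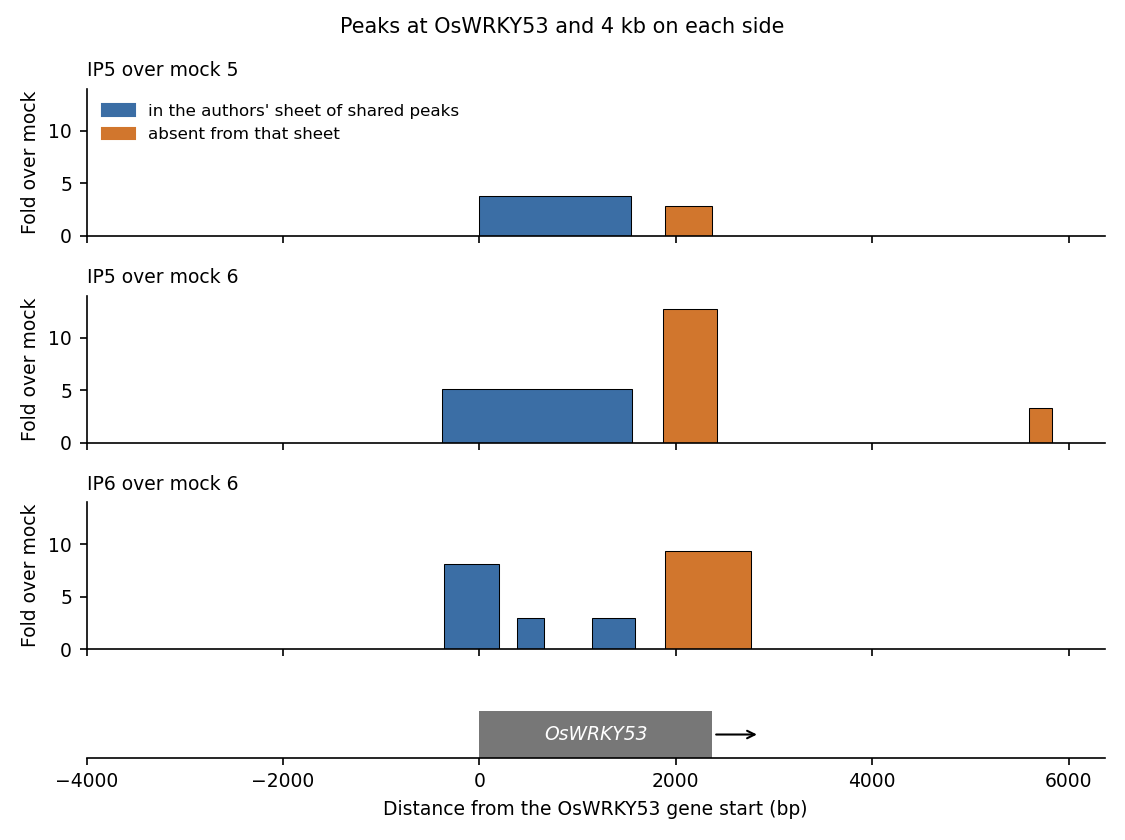
Peaks of the 3 lists at OsWRKY53, as bars that span each peak along the x axis (bp from the gene start) and reach its fold over mock on the y axis, with the gene as a grey box. All 5 peaks at the start (blue) are in the authors' sheet of shared peaks, and the 3 at the end and the 1 downstream (orange) are absent from it.

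Fold is the authors' value for 1 IP library over 1 mock library, so none of these values has a replicate error, and none was tested, since OsWRKY53 was chosen by these folds and by its peaks in all 3 lists. At a fold of at least 5 stood 0 of the 2 OsWRKY53 peaks in IP5 over mock 5, where 3.72% of all peaks did. In IP5 over mock 6 it was 2 of 3 (0.778% of all peaks), and in IP6 over mock 6 it was 2 of 4 (1.52% of all peaks). The lists also share libraries, IP5 in both of the first and mock 6 in both of the last. Only IP5 over mock 5 and IP6 over mock 6 have no library in common, and they had folds of 3.80 and 8.07 at the start and 2.84 and 9.34 at the end. Both ends were therefore called in both replicates, at lower fold in replicate 5. At the start these lists shared almost nothing upstream of the gene, which begins at 16150266. The peak of IP5 over mock 5 begins at 16150260, and the strongest of IP6 over mock 6 at 16149905. The bases these peaks shared, 16150260 to 16150467 (208 bp), thus lay almost wholly inside the gene. At 50% reciprocal overlap of these lists, OsWRKY53 kept a cluster at its end alone.

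The last of the 9 peaks lay downstream of the gene. It was found in IP5 over mock 6 alone, from 3230 to 3460 bp past the gene end, with a fold of 3.29 and q = 5.19e-09. Upstream of the gene no list had a further peak within 4 kb. The next peak upstream was 10082 bp away in IP5 over mock 6, 29020 bp in IP6 over mock 6 and 102547 bp in IP5 over mock 5. Downstream, the next ones beyond the window were 4385, 25835 and 10706 bp from the gene end in the same order of lists. On its upstream side the OsWRKY53 signal thus had no neighbouring peak within 4 kb in any of the 3 lists.

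Between its ends the gene was largely covered. Peaks of IP5 over mock 5 covered 85.3% of its length, those of IP5 over mock 6 86.7% and those of IP6 over mock 6 58.9%. The median over the 2589 genes of the table was 6.23%, 11.6% and 2.31%. Bases inside a peak of all 3 lists made up 57.1% of OsWRKY53 (1353 bp), against a median of 0% over the genes. With OsWRKY53 included, 24 genes (0.927%) reached at least that share. The comparison includes genes whose region lies outside the gene. Since OsWRKY53 was chosen by its peaks in all 3 lists, its coverage is a description and not a separate result. Between the start cluster and the end cluster lay 282 bp with no peak in any list.

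The lists disagreed on which end was stronger. IP5 over mock 5 had the higher fold at the start (3.80 against 2.84), while IP5 over mock 6 (5.06 against 12.7) and IP6 over mock 6 (8.07 against 9.34) had it at the end. For the same IP5 library, the fold at the end was 4.47 times as high over mock 6 as over mock 5, against 1.33 times at the start. Among 17301 overlapping pairs of IP5 peaks in those 2 lists, the end of OsWRKY53 had the highest such ratio of all, and the median ratio was 1.00. The 1.33 at the start sets folds read at different points of IP5 against each other. It therefore does not compare the mocks at the same place.

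The deposited fold and p of a peak together give what stood behind them. The peak caller named in the submitters' processing notes, MACS2, computes a fold as pile-up height plus 1 over background plus 1, and p as the Poisson chance of a pile-up above that height. Height is the number of IP reads, extended by the caller, that overlap at the peak's highest point. Background is the scaled mock level at or around that point, and it goes no lower than the genome-wide level. Solving both for each of the 92984 peaks gave a whole height within 0.02 of a step for all of them. For 1 peak in IP6 over mock 6, p was too small for an exact solution. With the Poisson tail taken from the height upwards instead, 3.08% to 3.60% came out whole. Heights and backgrounds given here are thus values derived from the deposited ones, and the authors' settings for duplicates, read extension and paired ends are not known here. The lowest and most frequent background, the genome-wide level, was 7.12 extended reads in both IP5 lists and 7.78 in IP6 over mock 6.

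At the end of OsWRKY53 the IP5 height was 102 in both lists, or 14.3 times the genome-wide level. What differed was the mock. Background under that point was 35.3 for mock 5, which is 4.96 times the genome-wide level. For mock 6 it was 7.12, the genome-wide level itself, so the mock 6 signal there may be lower than that. In IP6 the height was 81, or 10.4 times the genome-wide level, again with the mock 6 background at that level (7.78). By height the IP5 peak ranked 6 of 24169 in IP5 over mock 5, while by fold it ranked 14111. The low replicate 5 fold at this end thus combined a tall IP5 height with a raised mock 5 background. How much of that height is OsMADS2 binding was not tested.

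At the start the backgrounds belong to different points and do not compare the mocks at 1 place. IP5 had a height of 50 over a mock 5 background of 12.4, and a height of 69 over a mock 6 background of 12.8. The narrower of these peaks lies within the wider one, which has 377 bp more upstream and 5 bp more downstream, so the height of 69 was reached in one of those margins if the stored height is the peak's highest. Of 6080 IP5 peaks nested in this way, 6076 had a height no greater than that of the outer peak. The margins at OsWRKY53 hold no peak of IP5 over mock 5, so the mock 5 background there is not known here. IP6 had its height of 91 over a background of 10.4 in the peak that crosses the gene start, and 40 and 38 in the peaks behind it. In IP5 the end was thus taller than the start (102 against 50 and 69), and in IP6 it was shorter (81 against 91).

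**Figure D2:**
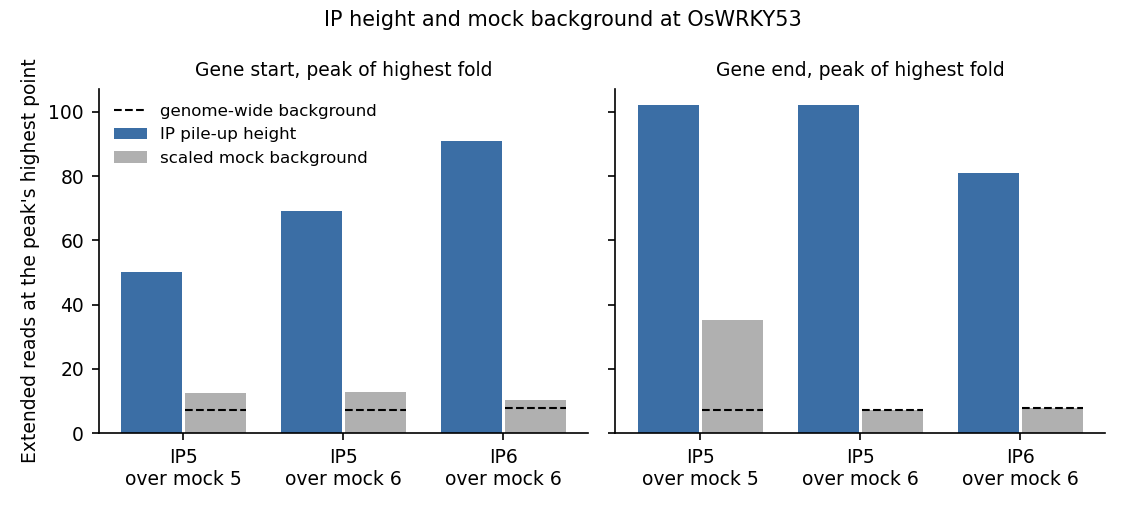
Derived IP pile-up height (blue) and scaled mock background (grey), in extended reads at the highest point of the strongest peak at each end of OsWRKY53, for the 3 lists, with the genome-wide background dashed. IP5 reaches 102 at the gene end in both lists, over a background of 35.3 in mock 5 and 7.12 in mock 6.

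This contrast between the mocks was compared with that at other IP5 peaks. Of the overlapping IP5 pairs, 16159 had the same height in both lists. Their median ratio of mock 5 to mock 6 background was 1.00, with quartiles of 0.816 and 1.23. The OsWRKY53 end, at 4.96, was the highest of the 16159, followed by 4.47 and 3.76. At equal height this ratio restates the ratio of folds given above, and OsWRKY53 was chosen by those folds. The rank is therefore a description and not a separate result. Its mock 6 background was at the genome-wide level, below which no background falls. A ratio of at least 2 was found in 395 pairs (2.44%) and of at least 3 in 15. By the plain difference of backgrounds, 28.2 extended reads, the OsWRKY53 end ranked 10. Whether the mock 5 level reflects chromatin, sequence or the library was not tested.

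**Figure D3:**
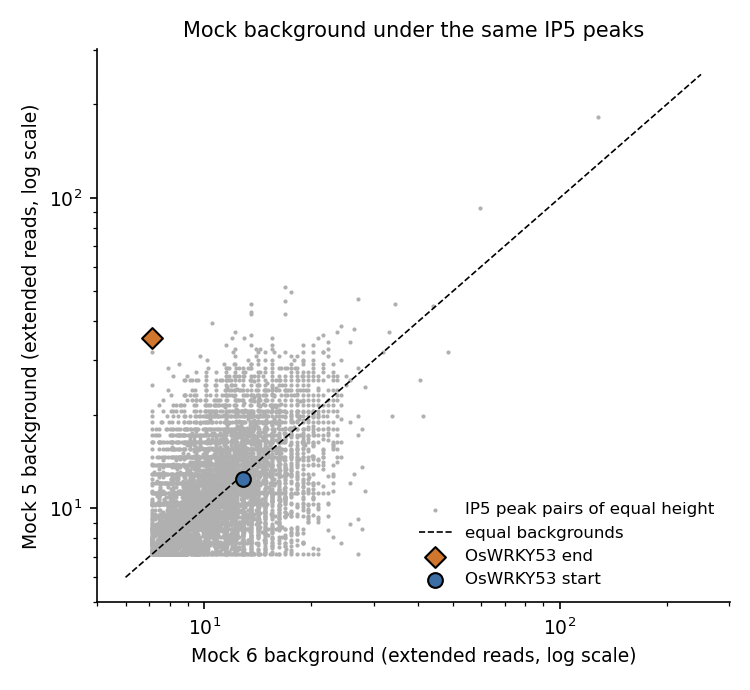
Mock 5 against mock 6 background, in extended reads on log axes, for 16159 pairs of IP5 peaks with the same height in both lists (grey), with equal backgrounds dashed. The OsWRKY53 end (orange diamond, 35.3 and 7.12) lies farthest above the line. The start (blue circle, 12.4 and 12.8) lies near it, but its heights of 50 and 69 were read at different points. Its place therefore does not compare the mocks.

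Neither the end peaks nor the downstream peak were in the authors' sheet of shared peaks. All 5 start peaks are there, as are 6.07%, 2.67% and 15.8% of the peaks in the 3 lists. When overlapping peaks (at least 1 shared base) were merged, there were 2 clusters with a peak of every list at OsWRKY53, 16149883 to 16151850, which equals the authors' region, and 16152133 to 16153031 (899 bp). Of all 1811 clusters of the 3 lists, 275 (15.2%) have no peak in that sheet. Among the 1505 whose peaks all have a fold of at least 2 it was 5 (0.332%), and the OsWRKY53 end is 1 of them. The gene table therefore shows OsWRKY53 with a start region alone. The reason was not tested.

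Separate clusters at both ends were then counted over the listed genes. Of the 2589 genes in the table, 333 (12.9%) had 2 or more clusters of all 3 lists within 4 kb, and 24 (0.927%) had 1 across the start and another across the end. OsWRKY53 is 1 of these by the way it was chosen. Genes that share both clusters reduce the 24 to 20 separate loci. The count rested on the libraries and thresholds used. It was 66 without IP5, where IP6 over mock 6 is the only list left and no agreement between lists is required. It was 44 without mock 5, 2 at a fold of at least 3 and 1 at 50% reciprocal overlap. OsWRKY53 was not counted in these last 2 settings, nor in the 22 genes found without mock 6, where only IP5 over mock 5 is left. Among the 24 it had the highest fold in IP6 over mock 6 at the start (8.07, median 3.75) and at the end (9.34, median 3.62). It also had the highest at the end in IP5 over mock 6 (12.7, median 4.20). In IP5 over mock 5 it ranked 8 at the start (3.80, median 2.71) and 15 at the end (2.84, median 3.08). These ranks use the folds by which OsWRKY53 was chosen and are a description.

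**Figure D4:**
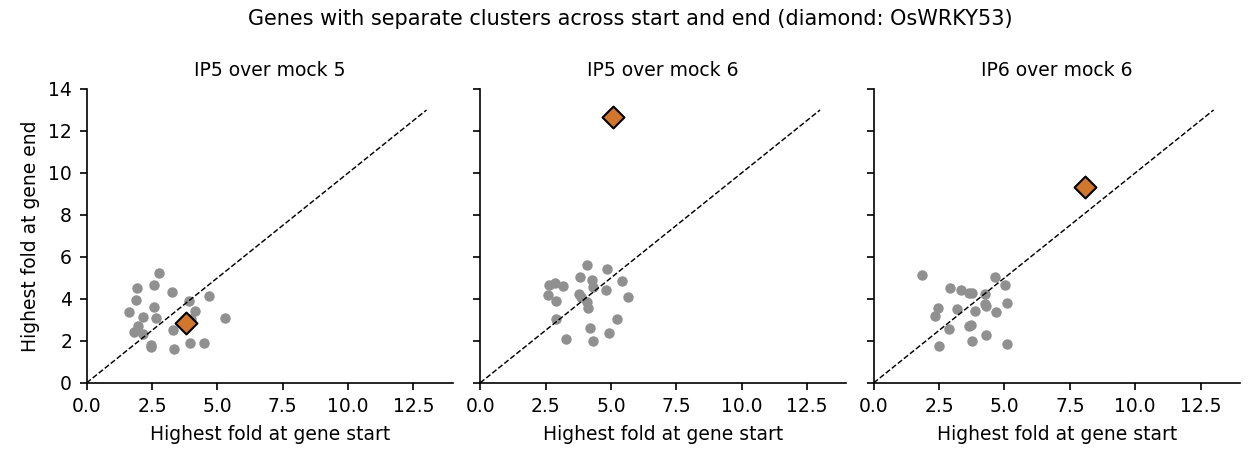
Highest fold at the gene start (x axis) and at the gene end (y axis) for the 24 genes with separate clusters across both, 1 panel per list, with equal folds dashed. OsWRKY53 (orange diamond) stands apart at 12.7 and 9.34 on the y axis of the lists over mock 6, and within the other genes at 2.84 in IP5 over mock 5.

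The genes most like OsWRKY53 were sought among those 24, by Euclidean distance over the 6 log2 folds (both ends in 3 lists). The nearest was OsUGlcAE3 (Os02g0791500), at a distance of 2.16, with start folds of 3.97, 3.85 and 5.04 and end folds of 1.89, 4.07 and 4.64 in the order of the lists. Os01g0846150 followed at 2.18, with end folds of 1.60, 5.64 and 4.29. Then came Os05g0453401 (2.21), Os08g0160700 (2.26) and Os05g0453300 (2.32). Os05g0453401 and Os05g0453300 lie on opposite strands and share their 2 clusters, so they are not separate cases. An end fold that was lower over mock 5 than over mock 6 for IP5 was found in 17 of the 23 other genes, the nearest 3 included. Some of these genes share both clusters, and the distance itself used these folds. Nor was the difference particular to the end. Over the 24 genes the median IP5 fold at the start was 2.71 over mock 5 and 4.10 over mock 6, against 3.08 and 4.20 at the end.

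Other WRKY genes served as the family comparison, and 13 besides OsWRKY53 are in the table. The authors' region crosses the start in OsWRKY68, OsWRKY87 and OsWRKY89, and it crosses the end in OsWRKY5. It lies inside OsWRKY107, OsWRKY13 and OsWRKY51, and outside the gene in the other 6, 741 to 3804 bp away. OsWRKY53, chosen for this pattern, was the 1 WRKY gene of the table with clusters at both ends. Each of the 13 others had 1 cluster within 4 kb. Over all 2589 genes, 0.927% had clusters at both ends and 12.9% had 2 or more within 4 kb. With shares that low, the count does not set the family apart.

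In IP6 over mock 6 the highest folds in the regions of the 13 ran from 2.19 to 5.06 with a median of 3.09. All were below the 8.07 of OsWRKY53, a gene chosen by its folds. In IP5 over mock 5 they ran from 2.10 to 6.53 (median 2.62), and OsWRKY55 (6.53) and OsWRKY5 (4.80) exceeded OsWRKY53. In IP5 over mock 6 they ran from 2.54 to 5.32 (median 4.22), where OsWRKY55 (5.32) and OsWRKY89 (5.30) exceeded it. OsWRKY87 came next to OsWRKY53 in IP6, with a height of 71 and a fold of 5.06 across its start. OsWRKY89 had a mock contrast of its own, with an IP5 height of 58 over backgrounds of 26.7 in mock 5 and 10.1 in mock 6. These values leave out the end of OsWRKY53, which is outside the authors' region and had folds of 2.84, 12.7 and 9.34 in the order of the lists.

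**Figure D5:**
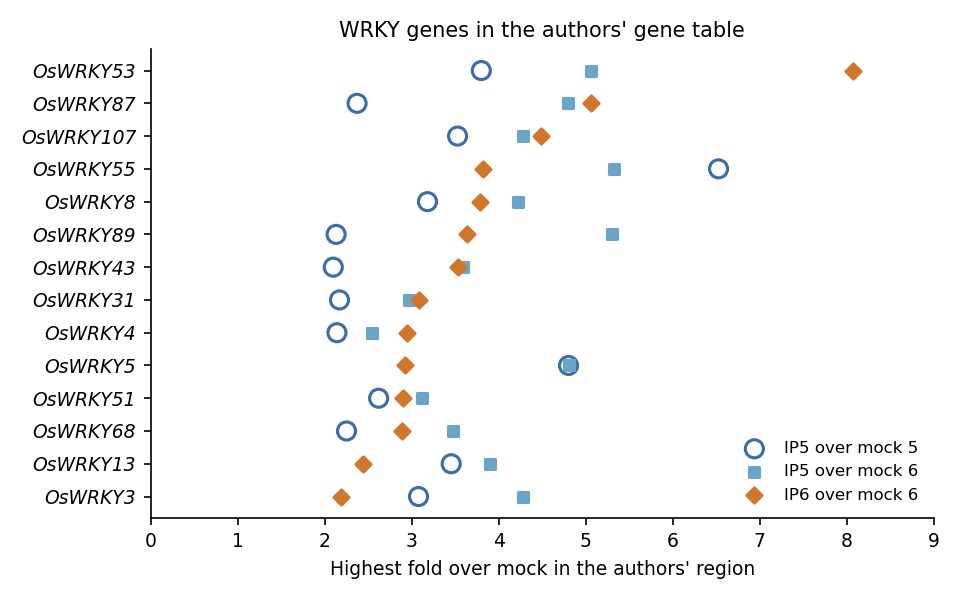
Highest fold over mock in the authors' region for the 14 WRKY genes of the gene table (open circles IP5 over mock 5, squares IP5 over mock 6, diamonds IP6 over mock 6), ordered by IP6 over mock 6. OsWRKY53 stands at 3.80, 5.06 and 8.07, and the next gene by IP6, OsWRKY87, at 5.06.

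Genes of the pathway around OsWRKY53 were looked up by symbol. In a list of 23 brassinosteroid genes, 4 are in the table. OsBRI1, the brassinosteroid receptor, has a region inside the gene (folds of 2.66, 3.69 and 3.44 in the order of the lists) and another 495 bp upstream (2.53, 5.03 and 2.17). OsBZR1, the transcription factor at the end of the pathway, has a region across its start (2.57, 2.85 and 3.70) and one across its end (3.61, 4.73 and 2.77). It is therefore also among the 24 genes with both ends, at lower fold than OsWRKY53 in both lists over mock 6. In IP5 over mock 5 its fold was lower at the start (2.57 against 3.80) and higher at the end (3.61 against 2.84). OsGSK1, a GSK3-like kinase, has a region 3860 bp downstream (2.24, 2.71 and 2.90). An entry that the table gives as OsSK11 and OsGSK2 (Os01g0252100), of the same kinase family, has a region across its start (2.18, 4.18 and 3.46) and one 391 bp downstream (3.20, 2.86 and 2.60). It is counted by that synonym alone and may not be the OsGSK2 known from brassinosteroid signalling.

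Of 10 genes in the list for the MAP kinase module, 1 is in the table. It is OsER1, a receptor kinase gene, with a region across its start and folds of 6.14, 4.07 and 3.82. The kinases of the cascade in that list, such as OsMKKK10, OsMKK4 and OsMPK6, were not found by symbol. The number of genes that could have been listed is not known here, and these counts were not read as enrichment.

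Functional annotation placed OsWRKY53 in 7 of the 77 gene ontology terms that the authors deposited as enriched. All 77 were thus selected by enrichment, and the share over all annotated genes is not given here. The smallest false discovery rate in the authors' deposited table among the 7 was for brassinosteroid mediated signaling (23 of 141 genes, 0.00462), a term that also holds OsBRI1, OsBZR1 and OsGSK1. Response to brassinosteroid stimulus (25 of 176 genes) had 0.0186 in the authors' deposited table, and regulation of cell proliferation (10 of 53 genes), shared with OsER1, had 0.0244. Response to wounding (34 of 276 genes) had 0.0453 in the authors' deposited table, the largest of the 7. The remaining terms were nucleus, transcription factor activity and response to salt stress. OsWRKY53 was the 1 WRKY gene of the table in both brassinosteroid terms, in the proliferation term and in the wounding term, while all 14 were in the transcription factor term.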

How the data were processed

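ChIP-seq libraries (2 OsMADS2, 2 IgG mock) were grouped by their titles. Fastp, Bowtie2, SAMtools, deepTools and MACS2 are named without versions in the submitters' processing notes. The authors deposited read counts per library and, for each peak, a fold enrichment (ratio of IP over mock) with −log10 p and −log10 q. Per the file headers the numbers 5 and 6 stand for biological replicates, and peaks overlapping in the lists were merged and assigned to genes. Each list compares 1 IP with 1 mock library, so no value has a replicate spread and no test was made.

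Peaks within 4 kb of OsWRKY53 were taken by the coordinates of the gene table. Lists were compared by overlap of 1 bp or more. Peaks overlapping the authors' region were counted as start peaks, and peaks within 500 bp of the gene end as end peaks. Heights and backgrounds were solved from fold and p with a pseudocount of 1, a step chosen after the data were seen. In a simulation 4556 of 4556 heights were recovered, with simulated peaks of too small a p left out. A single p, in IP6 over mock 6 and outside the OsWRKY53 locus, was too small to be solved exactly. Named genes were OsWRKY53, all WRKY genes of the table, listed pathway members in the table and the 5 nearest in pattern. Members and lists were chosen with earlier results of these data known. A planned promoter motif search was not made, since no sequence was used here. Alternatives are given in the closing section. Calculations ran in Python 3.11.15 with scipy 1.17.1, numpy 2.4.6 and pandas 2.3.3, and figures were drawn with matplotlib 3.10.9.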

Additional observations from a re-analysis of the deposited data

How the results depend on the processing

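Of 58 alternative values, 44 stayed within 1.5 times the count, or equal to the value, given in the report. With a fold of at least 3 required, IP5 over mock 5 had 1 peak at OsWRKY53, all 3 lists then shared 1 cluster there, and 2 genes of the table had clusters at both ends, OsWRKY53 not among them. With a fold of at least 2 that gene count was 13. With reciprocal overlap of 50% between IP5 over mock 5 and IP6 over mock 6, OsWRKY53 had 1 cluster, at its end, and 1 gene had both ends, again another gene. Without IP5 or without mock 6 a single list was left, with no agreement between lists required. Leaving out 1 library gave 2 to 4 clusters at OsWRKY53 and 22 to 66 genes with both ends. OsWRKY53 dropped out of those genes without mock 6, where the end peak of IP5 over mock 5 stops short of the gene end. For the same reason, the fold of a peak overlapping the gene end has no value in that list. With peaks within 1 kb of the gene end, the highest fold in IP5 over mock 5 was 3.80, from the start peak. By the difference of backgrounds in place of their ratio, the OsWRKY53 end ranked 10. With the other Poisson tail, 756, 2095 and 327 heights came out whole in the 3 lists. No paired analysis was possible because the values are peaks of single library pairs and no test was made. Depth limits the comparison of the IPs, since IP5 has fewer unique reads than IP6.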

Other observations

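Other IP5 peaks stood on a raised mock 5 level as the OsWRKY53 end did. After it, the highest ratio of mock 5 to mock 6 background among pairs of equal height, 4.47, was on the sequence that the lists call ChrSy, with folds of 2.10 over mock 5 and 8.50 over mock 6. The next, 3.76, lay at Os01g0846150 and Os01g0846300 (OsPP15) on chromosome 1, with an IP5 height of 64, backgrounds of 39.6 and 10.5, and folds of 1.60 and 5.64. Os01g0846150 is also the second of the genes most like OsWRKY53. A peak near Os07g0682400 and Os07g0682500 on chromosome 7 had a height of 86 over backgrounds of 45.6 and 13.5, a ratio of 3.38, with folds of 1.87 and 6.00. These peaks were picked by that ratio at equal height, so their higher folds over mock 6 follow from the choice.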
